A study of Mus musculus with 6 samples.

Results

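The hair shaft keratins described here are 10 genes, the acidic (type I) keratins Krt31, Krt33a, Krt33b, Krt34 and Krt35 and the basic (type II) keratins Krt81, Krt82, Krt84, Krt85 and Krt86. They were chosen by gene name, as every non-control array probe that carries 1 of the 10 names, which gave 12 probes of 39429 and 10 genes of the 23675 tested. Total RNA of ear skin was measured in 6 mice on 6 one-colour arrays. The KO group holds 3 mice (KO 1, KO 2 and KO 7) that the labels call NC16A deficient, and the WT group holds 3 mice (WT 1, WT 2 and WT 3) that they call NC16A sufficient. The series is about loss of function of BP180, also known as collagen XVII, a transmembrane collagen that anchors basal keratinocytes and of which NC16A is a stretch next to the membrane. Age and sex were matched between the groups according to the design text. The strain, the ages and the extent of the deletion are not given in the sources used here, nor is the hair cycle stage.

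Keratins are the intermediate filament proteins of epithelial cells, and each filament is built from pairs of 1 acidic and 1 basic keratin. Hair keratins are a cysteine-rich branch of the family, made by cells of the hair matrix, cortex and cuticle as they move up the growing follicle and harden into the shaft, where keratin-associated proteins crosslink the filaments. In the mouse they are made while a follicle grows and are not made while it rests. Their genes lie in 2 clusters. On the mm9 build the 5 acidic probes of this array lay on chromosome 11 within 81.0 kb (chr11:99872578-99953596), all on the minus strand, and the 7 basic probes lay on chromosome 15 within 110 kb (chr15:101261695-101371719).

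Values are log2 of the processed signal minus the same array's 75th percentile, so that 0 is the level of the 75th percentile probe. Differences are KO minus WT with the standard error of limma's fit across all genes, with p-values adjusted by the Benjamini-Hochberg method over the 23675 genes and a threshold of 0.05. Of all spots, 72.6% to 78.2% were well above background on the 6 arrays. The 12 hair keratin probes passed that mark on every array, and no spot was saturated. KO 1 and the 3 WT arrays shared slide 1 and its scan, and KO 2 and KO 7 were on slide 2. The value within slide 1 is therefore KO 1 against the 3 WT arrays. With slide as a block (a fixed term) the estimated difference is that same value, from 1 KO mouse. KO 2 and KO 7 then enter only the variance, so the 2 readings are not separate evidence. In bulk tissue, fewer cells of a type and less RNA per cell cannot be told apart. Col17a1, the gene of BP180, measured 4.48, 4.31 and 4.10 on KO 1, KO 2 and KO 7, against 4.41, 4.39 and 4.47 on WT 1, WT 2 and WT 3 (KO minus WT -0.13 ± 0.14, limma adjusted p = 0.576). Whether its probe lies inside the deleted stretch is not known, so it checks no label.

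Of the 10 hair shaft keratins, 8 rose in KO ears, all 5 acidic and 3 of 5 basic ones, and 0 fell, against 1.98% of all genes tested that rose and 0.389% that fell. The differences that passed ran from 3.099 for Krt35 to 4.59 for Krt84, that is from 8.57-fold to 24.1-fold. The median difference was 3.55 over the 10 genes, 3.89 over the acidic and 3.21 over the basic ones, and 0.05 over all genes tested. In 9 of the 10 every KO array lay above every WT array, as did 21.4% of all genes. With slide as a block, 7 of the 10 rose, against 0.667% of all genes.

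**Figure D1:**
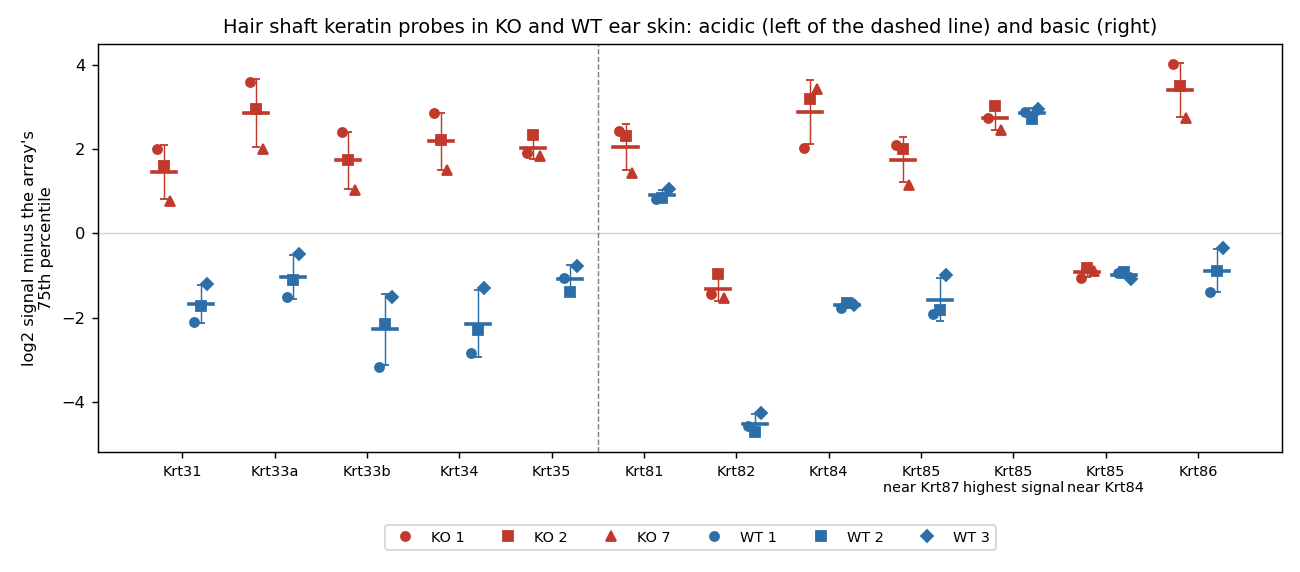
Signal of the 12 hair shaft keratin probes on each array (log2 signal minus the array's 75th percentile), with KO left of WT for each probe. Horizontal lines are group means and vertical bars are the SD over 3 arrays. Words under Krt85 name its probe of highest signal or the hair keratin probe nearest to the other 2 on the genome. The groups are apart for all probes except 2 of the 3 that carry the name Krt85.

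The roles given for single hair keratins are known mainly from human follicles, where the acidic ones are made in the cortex and, for Krt35, also in the matrix and cuticle. Krt35, among the first hair keratins made as matrix cells enter the shaft, measured 1.91, 2.34 and 1.83 on KO 1, KO 2 and KO 7, against -1.05, -1.40 and -0.77 on WT 1, WT 2 and WT 3. The 3 KO arrays lay within 0.51 of each other, and the lowest of them was 2.60 above the highest WT array. Krt35 rose by 3.099 ± 0.22 (8.57-fold, limma adjusted p = 0.00191), and with slide as a block it passed too (adjusted p = 0.0288), KO 1 being 2.98 above the WT mean.

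Krt31, a main acidic keratin of the cortex, measured 2.01, 1.59 and 0.77 on KO 1, KO 2 and KO 7, against -2.11, -1.72 and -1.20 on WT 1, WT 2 and WT 3. The groups were 1.97 apart at their nearest arrays, KO 7 and WT 3. Krt31 rose by 3.13 ± 0.37 (8.78-fold, limma adjusted p = 0.0105), with 3.69 within slide 1. It did not pass without KO 2 (adjusted p = 0.0516) or without WT 2 (adjusted p = 0.0555).

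Krt33a and Krt33b are a closely related pair of cortical keratins. Krt33a measured 3.60, 2.96 and 2.01 on KO 1, KO 2 and KO 7, against -1.51, -1.10 and -0.49 on WT 1, WT 2 and WT 3. Krt33b measured 2.41, 1.74 and 1.04 on KO 1, KO 2 and KO 7, against -3.18, -2.16 and -1.50 on WT 1, WT 2 and WT 3. In both genes the KO arrays were ordered KO 1, KO 2, KO 7 from the top and the groups did not overlap. Krt33a rose by 3.89 ± 0.44 (14.8-fold, limma adjusted p = 0.00931) and Krt33b by 4.01 ± 0.50 (16.1-fold, limma adjusted p = 0.0136). Within slide 1 the differences were 4.64 for Krt33a and 4.69 for Krt33b. Krt33b did not pass with slide as a block (adjusted p = 0.0618), without KO 2 (adjusted p = 0.0587) or without WT 2 (adjusted p = 0.062), and Krt33a did not pass without WT 2 (adjusted p = 0.0501).

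Krt34, also a cortical keratin, measured 2.85, 2.22 and 1.497 on KO 1, KO 2 and KO 7, against -2.85, -2.29 and -1.29 on WT 1, WT 2 and WT 3. The KO arrays spanned 1.36 and the WT arrays 1.56, and the groups were 2.79 apart. Krt34 rose by 4.33 ± 0.48 (20.1-fold, limma adjusted p = 0.0085), the highest difference of the 5 acidic genes, with 4.996 within slide 1.

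Among the basic keratins, Krt86 is a partner of the acidic keratins in the cortex. It measured 4.01, 3.49 and 2.73 on KO 1, KO 2 and KO 7, against -1.40, -0.89 and -0.36 on WT 1, WT 2 and WT 3. Its groups were 3.09 apart, and its array order was that of Krt31, Krt33a, Krt33b and Krt34. Krt86 rose by 4.29 ± 0.39 (19.6-fold, limma adjusted p = 0.0045), with 4.90 within slide 1.

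Krt82 is known as a keratin of the hair cuticle, the layer of flat cells around the cortex. It measured -1.44, -0.98 and -1.54 on KO 1, KO 2 and KO 7, against -4.58, -4.72 and -4.27 on WT 1, WT 2 and WT 3. The KO arrays lay within 0.56 of each other and the groups were 2.73 apart. Krt82 rose by 3.21 ± 0.20 (9.23-fold, limma adjusted p = 0.00191), with 3.09 within slide 1.

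Krt84 is a basic hair-type keratin that is also made by the filiform papillae of the tongue. It measured 2.02, 3.19 and 3.44 on KO 1, KO 2 and KO 7, against -1.78, -1.65 and -1.70 on WT 1, WT 2 and WT 3. The 3 WT arrays lay within 0.13 of each other, while the KO arrays spanned 1.41, and here KO 1 was the lowest KO array and KO 7 the highest. Krt84 rose by 4.59 ± 0.36 (24.1-fold, limma adjusted p = 0.00273). Within slide 1 the difference was 3.73, and Krt84 passed with slide as a block (adjusted p = 0.0106).

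Krt81, another basic keratin of the cortex, measured 2.44, 2.30 and 1.43 on KO 1, KO 2 and KO 7, against 0.82, 0.85 and 1.05 on WT 1, WT 2 and WT 3. Every KO array lay above every WT array, by 0.38 at the nearest. The difference was 1.15 ± 0.28 (2.22-fold) and did not pass (limma adjusted p = 0.0799, and 0.273 with slide as a block). Its 95% interval ran from 0.49 to 1.81, below the interval of every member that passed. It passed without KO 7 (adjusted p = 0.0103) and, on all 6 arrays, with array weights (1.38, adjusted p = 0.00309). In the weighted fit 4545 of 23675 genes rose, so a pass there says little about Krt81. The weights were 5.74 for KO 2, 0.55 for KO 1 and 0.32 for KO 7, so that KO 2 dominated the KO mean.

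Krt85, a basic keratin of the matrix and cortex made early in the shaft, is named by 3 probes, and they did not give 1 answer. The probe with the highest signal, which stands for the gene in the fit, measured 2.74, 3.03 and 2.46 on KO 1, KO 2 and KO 7, against 2.87, 2.70 and 2.96 on WT 1, WT 2 and WT 3. The groups overlapped, with a difference of -0.10 ± 0.18 (95% interval -0.53 to 0.33, limma adjusted p = 0.73). Its highest processed signal was 48756, on WT 1, and that of Krt86 reached 71283 on KO 1, with neither of them saturated.

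A second Krt85 probe measured 2.10, 2.01 and 1.14 on KO 1, KO 2 and KO 7, against -1.91, -1.83 and -0.98 on WT 1, WT 2 and WT 3. Here the groups did not overlap, and the array order was that of Krt86. In a fit of each probe alone, in which 1.76% of 29601 probes rose, this probe rose by 3.33 ± 0.35 (limma adjusted p = 0.0074), with 3.68 within slide 1, and it did not pass with slide as a block (adjusted p = 0.0529). The third Krt85 probe measured -1.05, -0.82 and -0.89 on KO 1, KO 2 and KO 7, against -0.94, -0.93 and -1.08 on WT 1, WT 2 and WT 3. Its difference was 0.06 ± 0.13 (95% interval -0.25 to 0.37, limma adjusted p = 0.779). Of the 12 member probes, 9 rose, and the 3 that did not pass were the Krt81 probe and these 2 of the Krt85 probes.

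**Figure D2:**
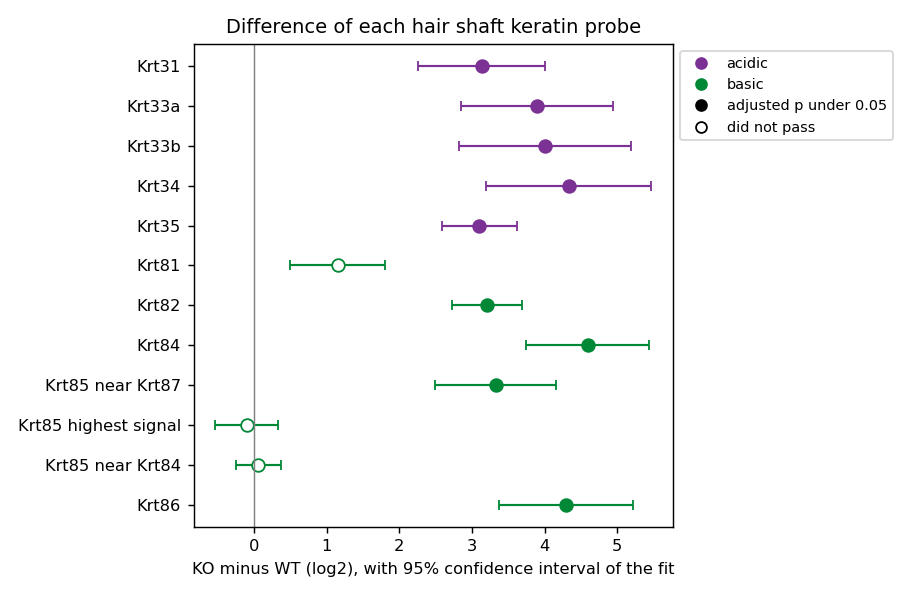
Difference of each hair shaft keratin probe, as log2 of KO over WT, and the 95% confidence interval of limma's fit to each probe. Filled points passed an adjusted p of 0.05. Krt81 at 1.15 and 2 of the 3 Krt85 probes at -0.10 and 0.06 are the open points, and the other Krt85 probe is at 3.33.

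The places that the scanner files give for the 3 Krt85 probes on mm9 differ. They carry the same transcript accession but span 84.5 kb of chromosome 15. The probe that rose is at chr15:101261695-101261754 on the minus strand, 1801 bases from the probe of Krt87, a neighbouring hair keratin gene that the array design calls Krt83. The third probe is at chr15:101346117-101346176 on the minus strand, 9281 bases from the Krt84 probe. Which gene's RNA each of them binds was not tested.

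The arrays of each group kept much the same order from gene to gene. KO 7 was the lowest KO array for 9 of the 10 genes, all but Krt84. KO 1 was the highest for 6, Krt31, Krt33a, Krt33b, Krt34, Krt81 and Krt86, and KO 2 was the highest for Krt35, Krt82 and Krt85. Among WT arrays, WT 3 was the highest for 9 genes, all but Krt84, and WT 1 was the lowest for 7. The mean profile of the 10 genes, relative to each gene's WT mean, was 3.41, 3.34 and 2.72 on KO 1, KO 2 and KO 7, against -0.32, -0.08 and 0.40 on WT 1, WT 2 and WT 3. Krt84 was the 1 gene of the 10 whose difference was larger on both slide 2 arrays (4.89 on KO 2 and 5.15 on KO 7) than on KO 1 (3.73) by more than 1 on this scale.

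**Figure D3:**
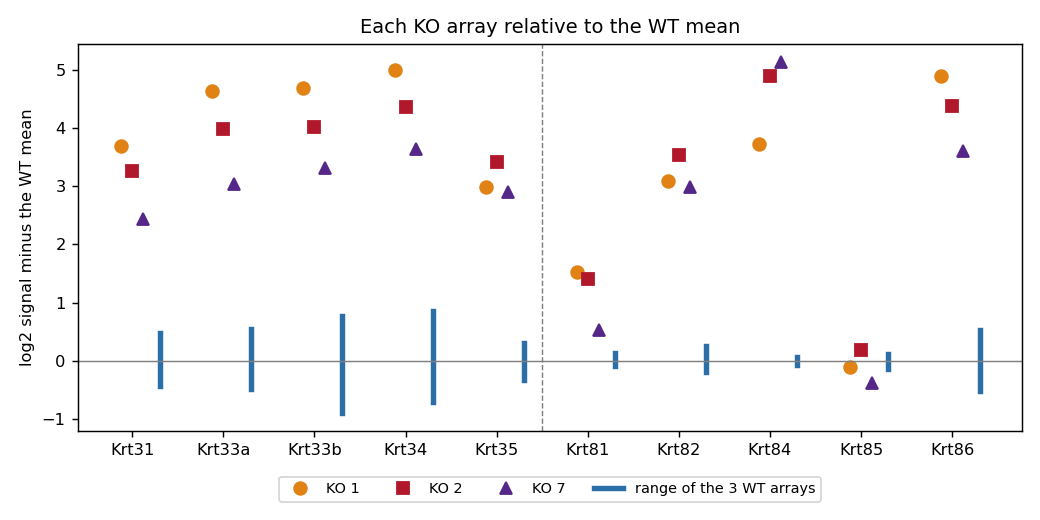
Each KO array's log2 signal minus the gene's WT mean for the 10 hair shaft keratins, acidic left of the dashed line, with blue bars for the range of the 3 WT arrays. KO 1 is highest for 6 genes, among them Krt34 (4.996) and Krt86 (4.90), while KO 7 is highest for Krt84 (5.15).

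Since each filament takes 1 keratin of either type, the acidic and basic sets were set side by side on each array, as the mean over genes of the signal minus the gene's WT mean. The acidic mean was 4.20, 3.81 and 3.07 on KO 1, KO 2 and KO 7, against -0.50, -0.09 and 0.59 on WT 1, WT 2 and WT 3. The basic mean was 2.63, 2.88 and 2.38 on KO 1, KO 2 and KO 7, against -0.14, -0.07 and 0.21 on WT 1, WT 2 and WT 3. Acidic minus basic was thus 1.06 ± 0.45 in KO (SD, n = 3), with 1.57, 0.93 and 0.69 on the 3 KO arrays, and 0.00 ± 0.37 in WT (SD, n = 3), where the mean is 0 by construction. This description carries no test. The gap depended on Krt81 and Krt85. The probes that stand for these genes were the only member probes with at least 80% identity over 40 or more bases to another probe of the array, and that of Krt81 was 92.7% identical over 55 bases to the probe of Krt87, which rose by 3.83. Binding of RNA from a related gene was not tested. Without Krt85 it was 0.38 ± 0.46, and without both it was -0.34 ± 0.58 (SD, n = 3), with 0.29, -0.46 and -0.85 on KO 1, KO 2 and KO 7. These sets without Krt81 and Krt85 were chosen after the data were seen. The mean of the 3 remaining basic genes was 3.90, 4.27 and 3.92 on KO 1, KO 2 and KO 7.

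**Figure D4:**
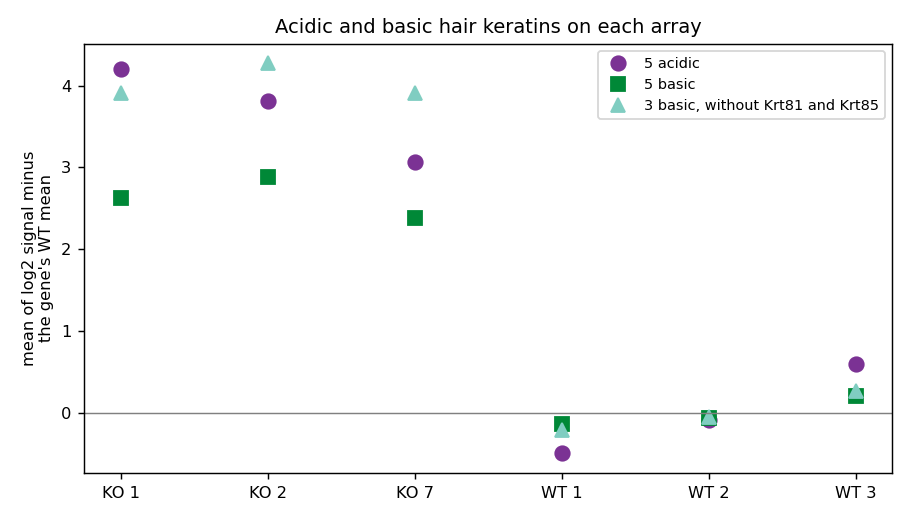
Mean over genes of the log2 signal minus the gene's WT mean on each array, for the 5 acidic genes, the 5 basic genes and the 3 basic genes other than Krt81 and Krt85. The acidic mean is above the 5-gene basic mean on all 3 KO arrays, and below the 3-gene basic mean on KO 2 and KO 7.

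RefSeq promoters (GRCm38.p6, 250 bases before to 50 after the start) were at hand for 5 of the 10 members, Krt31, Krt33b, Krt34, Krt82 and Krt84, all of which rose. They are shown for 2 acidic and 2 basic genes, 5′ to 3′ on the gene's strand, with capitals, for a match on either strand, at TATAAA (the TATA box core), CTTTGAA (a core of sites for TCF and LEF factors, of which Lef1 acts in the hair matrix) and TTTATNG (a core of the kind bound by HOX factors such as Hoxc13, a regulator of hair keratin genes).
Krt31 (chr11:100050502-100050801, minus strand): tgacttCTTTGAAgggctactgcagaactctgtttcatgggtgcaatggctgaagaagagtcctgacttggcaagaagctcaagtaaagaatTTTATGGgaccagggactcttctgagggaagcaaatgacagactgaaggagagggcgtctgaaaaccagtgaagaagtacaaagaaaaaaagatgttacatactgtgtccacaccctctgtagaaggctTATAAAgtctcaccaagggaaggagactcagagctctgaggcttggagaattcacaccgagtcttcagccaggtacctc
Krt34 (chr11:100041505-100041804, minus strand): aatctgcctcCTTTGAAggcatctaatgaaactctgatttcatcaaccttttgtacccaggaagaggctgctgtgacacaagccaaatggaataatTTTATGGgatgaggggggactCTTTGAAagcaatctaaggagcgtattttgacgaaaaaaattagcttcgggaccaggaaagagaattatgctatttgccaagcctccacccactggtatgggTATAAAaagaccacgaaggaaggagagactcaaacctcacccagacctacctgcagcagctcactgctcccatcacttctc
Krt82 (chr15:101550610-101550909, minus strand): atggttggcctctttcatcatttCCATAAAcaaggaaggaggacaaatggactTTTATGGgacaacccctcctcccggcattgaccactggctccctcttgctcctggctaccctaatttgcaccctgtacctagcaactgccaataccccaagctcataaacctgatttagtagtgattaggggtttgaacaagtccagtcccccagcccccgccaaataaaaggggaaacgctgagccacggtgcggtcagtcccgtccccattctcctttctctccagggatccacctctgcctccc
Krt84 (chr15:101532771-101533070, minus strand): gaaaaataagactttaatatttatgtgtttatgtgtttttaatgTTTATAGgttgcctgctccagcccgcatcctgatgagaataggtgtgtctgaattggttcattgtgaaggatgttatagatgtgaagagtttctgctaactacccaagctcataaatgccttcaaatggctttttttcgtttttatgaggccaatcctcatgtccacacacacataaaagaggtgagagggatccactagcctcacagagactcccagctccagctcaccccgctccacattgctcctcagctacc
Both strands were searched. TATAAA was present in 4 of the 5 member promoters and in 13.6% of 32817 promoters of the same length. It began 29 bases before the start in Krt31, 31 in Krt34 and 47 in Krt33b, and in Krt84 it was on the opposite strand, where it overlaps the TTTATNG match. CTTTGAA was present in 3 of the 5 (the acidic Krt31, Krt33b and Krt34) and in 5.14% of all promoters, and the related CTTTGAT in 0 of the 5 and 3.73% of all. TTTATNG was present in 4 of the 5 (Krt31, Krt34, Krt82 and Krt84) and in 10.9% of all. In Krt34 and Krt31 it began 154 and 158 bases before the start, and in Krt82 and Krt84 it began 197 and 206 before. Krt82 held a second match on the opposite strand, 227 bases before the start. A match describes letters and is not a site shown to be used.

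Of the regulators themselves, 2 of 15 tested rose and 0 fell, with a median difference of 0.14. Lef1 rose by 1.13 ± 0.20 (limma adjusted p = 0.0452) and Hoxc13 by 0.99 ± 0.16 (limma adjusted p = 0.0377). Foxn1, a regulator of hair keratin genes that is lost in nude mice, differed by 0.14 ± 0.17 (limma adjusted p = 0.594), and Msx2, a homeobox factor of the matrix, by 0.37 ± 0.18 (limma adjusted p = 0.226). These 2 were named after their values were seen. None of the 15 passed with slide as a block, and Shh, a signal of the growing matrix, was below the filter on dim probes.

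The 5 genes outside the set whose profile over the 6 arrays was nearest to the members' mean profile, by the root mean square difference of values relative to each gene's WT mean, were Krt73 (0.14), Mecom (0.18), Ly6g6d (0.20), Krtap3-3 (0.20) and Gm9736 (0.21). Krt73 is a keratin of the inner root sheath and Krtap3-3 a keratin-associated protein of the shaft. Of the members, Krt31 (0.17) and Krt82 (0.23) were nearest to the same profile and Krt85 (2.32) and Krt81 (1.43) farthest.

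Genes of other hair shaft and root sheath lists rose too. Of the hair keratins outside the set, 3 of 4 tested rose and 0 fell (median 3.15), Krt36 by 3.08 ± 0.27 (limma adjusted p = 0.00437), Krt40 by 3.22 ± 0.31 (limma adjusted p = 0.00536) and Krt87, a neighbour of the basic members, by 3.83 ± 0.49 (limma adjusted p = 0.0142). With slide as a block 2 of the 4 rose, and Krt40 did not pass (adjusted p = 0.051). Of the keratin-associated proteins, which crosslink hair keratins, 48 of 52 rose and 0 fell (median 3.78), and 33 did so with slide as a block. Krtap17-1 rose by 3.39, Krtap12-1 by 3.38 and Krtap28-13 by 3.63. Of the keratins of the inner root sheath and companion layer, which mould the shaft and do not enter it, 7 of 8 rose and 0 fell (median 3.76), and 3 did so with slide as a block. Krt25 rose by 4.22 ± 0.38 (limma adjusted p = 0.0045) and Krt71 by 3.96 ± 0.39 (limma adjusted p = 0.00585), and Krt71 did not pass with slide as a block (adjusted p = 0.0613), while Krt72 differed by -0.24 ± 0.32 (limma adjusted p = 0.632). Of the structural partners of shaft and root sheath, 7 of 13 rose and 0 fell (median 1.33), and 4 did so with slide as a block, among them Padi3, which converts arginine to citrulline in trichohyalin (4.31 ± 0.35, limma adjusted p = 0.00323), Tchhl1, a trichohyalin-like protein (4.85 ± 0.41, limma adjusted p = 0.00372), and Crnn, a cornulin (3.98 ± 0.38, limma adjusted p = 0.00536).

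The other keratin lists had lower medians. Of the epidermal and outer root sheath keratins, 0 of 10 passed (median 0.41), and of the simple epithelial keratins 0 of 5 (median -0.37). Of the wound and stress keratins all 4 were higher in KO (median 2.54) and 2 of the 4 rose. Krt16 rose by 2.74 ± 0.50 (limma adjusted p = 0.0477) and Krt17, which the follicle also makes, by 1.04 ± 0.17 (limma adjusted p = 0.0364). Neither passed with slide as a block. Krt6b (3.45 ± 0.80, limma adjusted p = 0.0762) and Krt6a (2.34 ± 0.50, limma adjusted p = 0.0668) did not pass. The difference between these families and the hair shaft keratins was not tested.

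**Figure D5:**
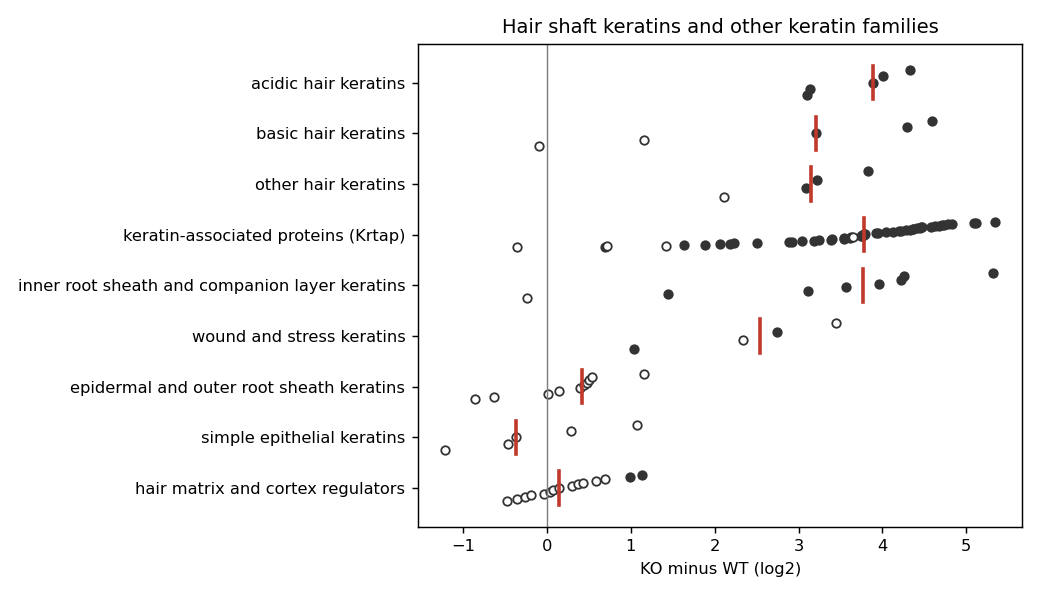
KO minus WT (log2) of each gene tested in 9 lists, with filled points for genes that passed an adjusted p of 0.05 and a red line at the list's median. Hair keratins, keratin-associated proteins and inner root sheath and companion layer keratins have medians between 3.15 and 3.89. Wound and stress keratins have a median of 2.54, epidermal and outer root sheath keratins 0.41 and simple epithelial keratins -0.37.

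Markers of cells that the ear samples could hold in unequal amounts were read beside the hair keratins. Sums are of linear signal divided by its value at each array's 75th percentile. Of the neutrophil markers 3 of 10 tested rose, S100a9 by 4.69 ± 0.30 (limma adjusted p = 0.00191), S100a8 by 4.72 ± 0.35 (limma adjusted p = 0.00226) and Cxcr2 by 2.05 ± 0.26 (limma adjusted p = 0.0151). The summed level of the 10 was 76.5 to 124 in KO and 11.2 to 13.2 in WT, and Ngp was not above background. A sum of linear signal weighs the brightest markers most, so it is not a count of neutrophils. Which cells made the S100a8 and S100a9 RNA was not tested. With slide as a block 2 of the 10 rose, and Cxcr2 did not pass (adjusted p = 0.09995). The other 7 did not pass, among them Ly6g (-0.35), Camp (0.45), Ltf (0.43) and Elane (0.17), which were named after their values were seen. Of the 10 neutrophil markers 9 were higher in KO and 1 lower, with a median difference of 1.29, and the 4 just named lie below that median. T cell markers rose in 3 of 8, led by Icos (2.58 ± 0.36, limma adjusted p = 0.0206), and in 0 with slide as a block (adjusted p = 0.0618 for Icos). Their sums were 4.25 to 6.50 in KO and 3.47 to 4.19 in WT. Markers of proliferating cells passed in 0 of 10 (sums 19.0 to 26.9 in KO and 19.0 to 24.1 in WT), of the dermal papilla in 0 of 8 (24.3 to 27.5 in KO and 27.7 to 31.7 in WT) and of the bulge and resting follicle in 0 of 8 (36.5 to 51.4 in KO and 35.6 to 46.8 in WT). Melanocyte markers passed in 0 of 9, with sums of 8.56 to 19.0 in KO and 7.82 to 9.47 in WT. Of the markers of deeper ear tissue, adipocyte genes were lower in KO in 9 of 9 with 0 past the threshold (69.6 to 117 in KO and 84.0 to 190 in WT). Skeletal muscle genes were lower in 9 of 10 with 0 past it (142 to 267 in KO and 213 to 377 in WT), and cartilage genes were lower in 6 of 9 with 0 past it (21.6 to 25.8 in KO and 25.3 to 32.2 in WT). Sebaceous gland markers rose in 1 of 7, Elovl3 (1.56 ± 0.17, limma adjusted p = 0.0085, and 0.0994 with slide as a block), with sums of 58.9 to 63.7 in KO and 49.3 to 68.4 in WT, and macrophage markers passed in 0 of 7 (17.98 to 28.8 in KO and 22.6 to 25.2 in WT). The part of these cells in the hair keratin differences was not tested.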

How the data were processed

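The intensities used are the processed signals of the deposited scanner files, made with Agilent Feature Extraction 10.7.3.1 and protocol GE1_107_Sep09 on array design 026655, per the file headers, with probe positions on mm9. The intensities the authors deposited in the series table, an alternative here, equalled those signals for all 43340 features of each array. RNA came from Qiagen RNeasy kits, per the labels, which do not give the Cy3 labelling method.

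Usable spots of a probe were averaged, log2 was taken and each array's 75th percentile subtracted. A probe was kept where 3 or more of the 6 arrays had it well above background (29601 probes), and a gene was represented by its kept probe of highest mean. Names came from RefSeq by accession (26055 probes), symbol (3195) or synonym (930), and otherwise from the scanner file (9249). limma 3.58.1 in R 4.3.3 (lmFit, eBayes) compared KO with WT over 23675 genes, and was tested on simulated data with 200 changed genes. The number of arrays, 3 a group, limits the precision. Alternatives were normexp background, other scalings and filters, slide or replicate number as a block, array weights and each array left out.

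The members and lists were chosen with earlier results of these data known. The genes named are all members, Col17a1, up to 3 members of each list with the smallest p that passed, and the 5 nearest profiles. Other genes named were chosen after their values were seen. For 1 Krt85 probe, sequence and position are not reported here.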

Additional observations from a re-analysis of the deposited data

How the results depend on the processing

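The rise of the hair keratins held under most alternatives. Krt34, Krt35, Krt82, Krt84 and Krt86 each passed in 22 of 23 settings, all but the one with a replicate block. These are not 23 separate fits. The deposited values repeat the main fit exactly, and the adjusted p of 0.10 and the 2-fold minimum are other thresholds on it. Leaving out 1 array at a time gave 5 (without WT 2) to 9 (without KO 7) members that passed, with 6 without KO 2, and 202 to 971 genes in all. Over all genes, 560 passed (468 higher, 92 lower), against 995 with normexp background, 296 with no filter, 168 with slide as a fixed block, 7621 with array weights and 2040 at an adjusted p of 0.10. The labels state no pairing of the mice by replicate number. KO 1 and WT 1 deviated together with r = 0.08 and KO 2 and WT 2 with r = 0.05. Over all KO and WT pairs r ran from -0.14 (KO 2 with WT 3) to 0.21 (KO 7 with WT 3). Deviations from means of 3 arrays cannot settle whether mice were paired. With the replicate numbers as a block limma passed 0 genes and 0 members at an adjusted p of 0.05, and 4516 genes at an unadjusted p under 0.05. Krt81 passed with array weights (1.38, adjusted p = 0.00309). Krt85 changed sign with array weights (0.19), with the mean of its probes (1.10, adjusted p = 0.0359), with the replicate block (0.10) and without KO 7 (0.042), with -0.25 to 0.042 over the 6 fits that left out 1 array. Acidic minus basic was 1.57 within slide 1, 0.38 without Krt85, -0.34 without the Krt81 and Krt85 probes and 0.81 to 1.25 with 1 array left out. The median of all genes was 0.05, against -0.08 with scaling to the array median, a shift that moves every difference alike. The cause of the other changes was not tested.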
